A study of Arabidopsis thaliana with 18 samples.

Results

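Petioles of wild-type Arabidopsis thaliana rosette leaves were compared between plants given a pulse of far-red light and then 2 h of darkness (FRD) and plants kept for the same 2 h in white light (WL). Plants of both treatments were 19 days old, had been raised under continuous white light at 22 °C, and gave RNA from leaves 3 and 4. The comparison uses 6 of the 18 arrays of the series, namely the 3 labelled as petiole in FRD and the 3 labelled as petiole in WL, and the design text describes the 3 arrays of a group as independent biological replicates. Petioles of plants kept 2 h in the dark without the pulse (D, 3 arrays) and leaf blades under FRD and WL (6 arrays) are set beside it. FRD differs from WL by the pulse and by the darkness together, so the comparison cannot tell the pulse from the darkness, and the D petioles are given for most of the main genes.

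Phytochromes are plant photoreceptors that red light switches on and far-red light switches off. Far-red-rich light, as under leaves of neighbouring plants, and a far-red pulse before darkness both remove active phytochrome and start the shade avoidance response, with longer petioles and smaller leaf blades. The response is known to run through PIF transcription factors, homeodomain-leucine zipper factors, new auxin synthesis and enzymes that loosen the cell wall, while darkness itself stops photosynthesis and shifts the leaf towards use of stored carbon.

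The arrays are Affymetrix Arabidopsis arrays hybridised with biotin-labelled cRNA. Each deposited value is a linear ratio to the WL median of the same tissue, so a value of 1 is the median WL petiole and the level of a transcript is unknown. This reading rests on the values: the median of the 3 WL arrays was exactly 1 in all 22810 probe sets. Markers of petiole or of other cell types could therefore not check the tissue label, because they would need levels. The array medians lay between 0.998 and 1.011 in FRD petioles and were 1 in WL petioles. The median standard deviation (SD) of a probe set over 3 arrays was 0.29 log2 units in FRD, 0.26 in D and 0.25 in WL petioles. For 25S ribosomal RNA, a control, the probe set averaged 0.15 ± 0.36 in FRD and -0.05 ± 0.10 in WL petioles on the log2 scale (SD, n = 3 each), and those for GAPDH averaged -0.18 ± 0.01 in FRD and 0.05 ± 0.10 in WL at the 3′ end and -0.30 ± 0.02 in FRD and -0.04 ± 0.13 in WL at the 5′ end. The arrays are few, and their number limits the precision of every value below. Of the 22746 probe sets tested, the platform annotation and the RefSeq gene table give a symbol to 1580 only, so many well-known light and growth genes carry no name here.

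The pulse and darkness changed 1891 of 22746 probe sets in petioles, which is 8.31% (limma, Benjamini-Hochberg adjusted p under 0.05, two-sided). Of these, 1010 were higher in FRD (4.44%) and 881 were lower (3.87%), so that 53.4% of the calls were rises. Changes of at least 2-fold were called for 529 rises (2.33%) and 390 falls (1.71%), changes of at least 2 log2 units for 198 rises (0.87%) and 92 falls (0.404%), and changes of at least 3 log2 units for 83 rises (0.365%) and 30 falls (0.132%). The rises thus outnumbered the falls most among the large changes. The median call was 1.03 log2 units among the rises and -0.94 among the falls, while the median over all probe sets was 0.00. Aligning the 75th percentile of each array turned the split round, to 12.7% rises among 4385 calls with a median of -0.31 over all probe sets. The 75th percentile of the ratios lay between 1.31 and 1.35 in FRD petiole arrays and between 1.01 and 1.10 in WL petiole arrays, which are closer to 1 because each gene was divided by their median. Aligning therefore shifted every change of FRD over WL petioles down by the same amount, in all lists alike. Falls that appear only with this setting are given below as a dependence on scaling and are no evidence about a list. Leaving out petiole WL replicate 1 gave 1152 calls, petiole WL replicate 2 gave 1170 and petiole FRD replicate 2 gave 1257. Of 144 called probe sets followed through other settings (all those with a symbol and 8 genes known by locus code), 75 stayed called without any single array, 48 with the spread taken from the compared arrays alone and 23 after quantile normalization. RNA was taken from petioles with all their cell types, so fewer cells of a type and less RNA per cell cannot be told apart in any fall reported here.

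**Figure D1:**
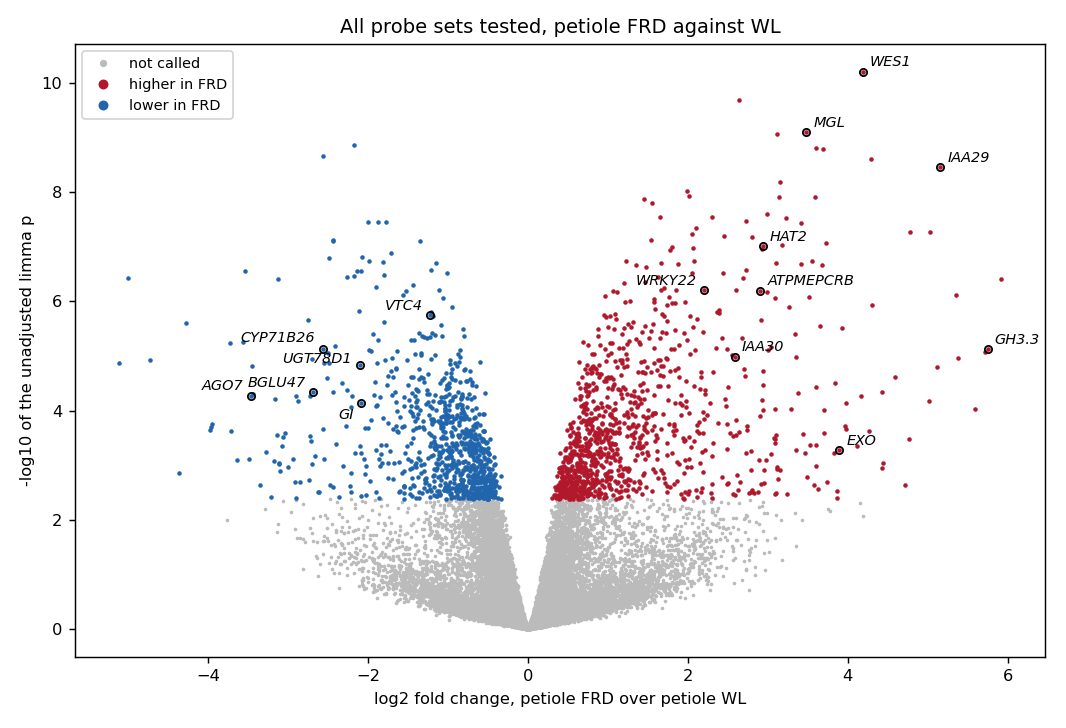
Every probe set tested, with the log2 fold change of petiole FRD over petiole WL on the horizontal axis and the negative log10 of the unadjusted limma p on the vertical axis. Red and blue points are the 1010 rises and 881 falls called at an adjusted p under 0.05, grey points were not called, and open circles mark named genes, among them WES1, MGL and IAA29 on the right and CYP71B26, AGO7 and GI on the left.

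D and WL petioles differed in 1274 probe sets (5.6%), 785 higher in D (3.45%) and 489 lower (2.15%), and FRD and D petioles in 249 (1.09%), 200 higher in FRD (0.879%) and 49 lower (0.215%). These comparisons share arrays with FRD against WL, so their values are given side by side only. Among the 1010 probe sets that rose, the median change was 1.03 in FRD over WL, 0.68 in D over WL and 0.21 in FRD over D. Among the 881 that fell, the medians were -0.94 in FRD over WL, -0.64 in D over WL and -0.25 in FRD over D.

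The largest rises with a gene symbol were led by early auxin genes, several of which were near their white-light ratio in dark petioles that had no pulse. GH3.3 (AT2G23170), which conjugates auxin with amino acids, had ratios of 33.5, 43.9 and 42.6 in FRD petioles, of 0.804, 1.65 and 1.47 in D petioles and of 1.05, 1 and 0.384 in WL petioles. It rose 53.7-fold over WL, by 5.75 ± 0.82 log2 units (standard error, SE; limma adjusted p = 0.000881). The FRD arrays stood far above all the others, and the D and WL arrays overlapped. With the prior variance set by a trend on the mean, its call was lost (limma adjusted p = 0.272). That mean is of log2 ratios over all arrays, so it holds the response of the gene itself and no level. The sister enzyme WES1 (AT4G27260) had ratios of 18.1, 18.7 and 15.3 in FRD, of 1.21, 0.873 and 1.33 in D and of 0.807, 1 and 1.06 in WL petioles. It rose by 4.19 ± 0.23 (18.2-fold, limma adjusted p = 1.43e-06), and its FRD arrays again lay far above the D and WL arrays, which overlapped.

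Among 5 GH3 genes with a probe set, these 2 rose and none fell, against 8.31% of all probe sets called, and with the 75th percentiles aligned 2 were higher and 1 lower. After quantile normalization the same 2 were called. GH3.1 had ratios of 7.13, 7.95 and 4.61 in FRD and of 1, 1.41 and 0.369 in WL petioles, but its change of 2.99 ± 1.18 did not pass the test (limma adjusted p = 0.153). GH3.17 stood at 1.28 ± 0.49 and GH3.9 at -0.85 ± 0.30, neither called. The list had a median of 2.99, against 0.00 over all probe sets.

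Many Aux/IAA genes, though not all, encode short-lived repressors that auxin removes and whose transcription it raises. IAA29 (AT4G32280) had ratios of 44.0, 45.2 and 35.2 in FRD petioles, of 1.62, 1.56 and 4.25 in D petioles and of 0.887, 1 and 1.75 in WL petioles. It rose 35.6-fold over WL, by 5.15 ± 0.38 log2 units (limma adjusted p = 7.88e-06), and every FRD array exceeded every D and WL array. IAA20 (AT2G46990) had 10.6, 16.1 and 5.96 in FRD, 1.12, 3.87 and 0.798 in D and 0.389, 1.44 and 1 in WL petioles. It rose by 3.61 ± 0.78 (limma adjusted p = 0.0108), and without petiole WL replicate 1 its change was 3.06 with an adjusted p of 0.0563. IAA30 (AT3G62100) went opposite ways in the 2 dark treatments: its ratios were 5.67, 6.46 and 5.99 in FRD petioles, 0.345, 0.426 and 0.285 in D petioles and 1.10, 0.928 and 1 in WL petioles. It rose by 2.58 ± 0.38 in FRD over WL (limma adjusted p = 0.00108) and fell by 1.53 ± 0.38 in D over WL (adjusted p = 0.0314).

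Of 7 Aux/IAA genes measured, these 3 rose and none fell, against 4.44% higher among all probe sets. IAA31 stood at -1.67 ± 1.15 and was not called, with ratios of 0.175, 0.179 and 1.83 in FRD and of 1, 2.32 and 0.795 in WL petioles. The list median was 0.43. After quantile normalization 1 of the 7 was called, IAA29. No gene of a list of 5 for auxin synthesis, conjugation and transport was called, and its median was 0.01. YUC2, a flavin monooxygenase that makes auxin, had ratios of 1.11, 0.996 and 1.08 in FRD petioles and of 1.19, 1 and 0.994 in WL petioles. In blades it rose by 1.79 ± 0.26 in FRD over WL (limma adjusted p = 0.00074). The petiole minus blade difference, tested separately, was not called for any gene of this list. For IAGLU, which joins auxin to glucose, the change was -0.31 ± 0.38 in FRD over WL, not called, and -1.96 ± 0.38 in D over WL (adjusted p = 0.00883).

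**Figure D2:**
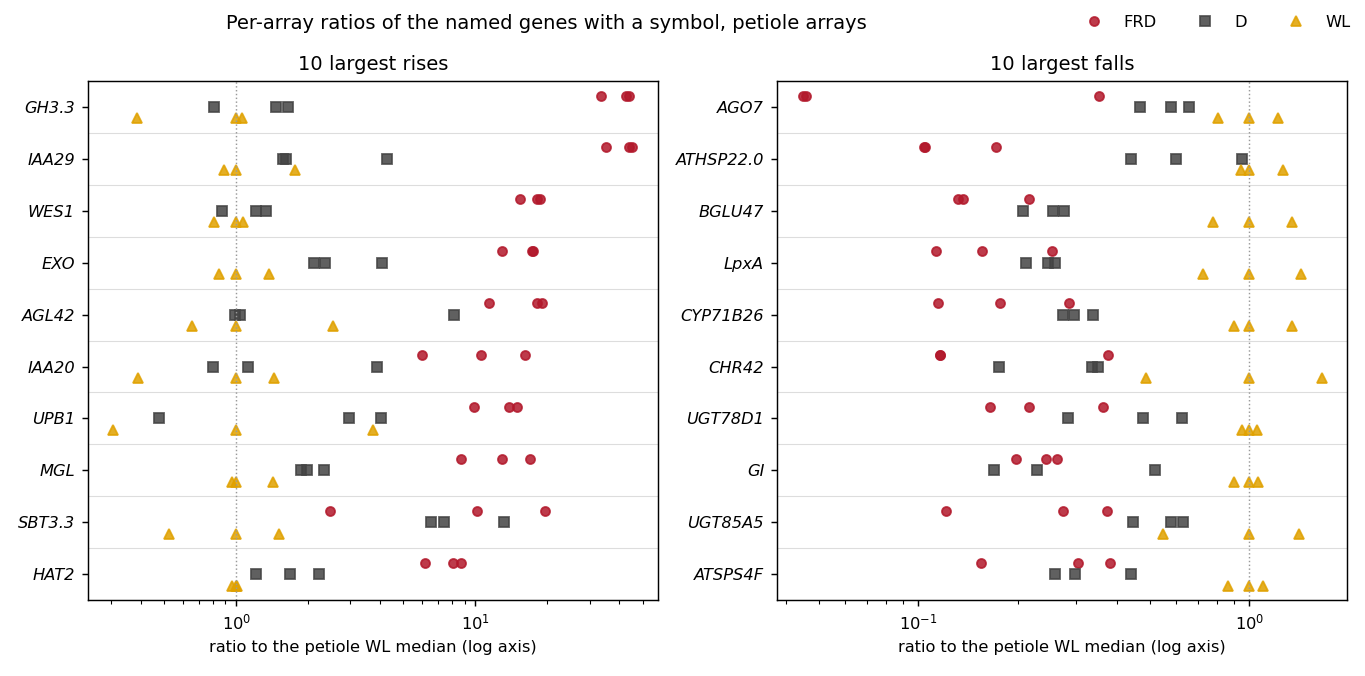
Ratio of each petiole array to the WL median on a log axis, for the 10 largest rises (left) and the 10 largest falls (right) with a gene symbol. Circles are FRD arrays, squares D arrays and triangles WL arrays, 3 each. The 20 genes were chosen among those whose FRD and WL arrays do not overlap, so the gap between circles and triangles is no result. Over all probe sets the FRD arrays lay all above the WL arrays in 13.5% and all below in 12.8%. The D squares lie near the WL triangles for GH3.3 and WES1 but beside the FRD circles for SBT3.3, LpxA and GI.

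Of 3 genes of shade and phytochrome signalling 2 rose and none fell, against 8.31% of all probe sets called, and with the 75th percentiles aligned 2 were higher and 1 lower. After quantile normalization 1 of the 3 was called, HAT2. HAT2 (AT5G47370), a homeodomain-leucine zipper factor known to respond to shade, had ratios of 8.69, 8.09 and 6.18 in FRD petioles, of 1.21, 1.69 and 2.22 in D petioles and of 0.957, 1 and 1.01 in WL petioles. It rose by 2.94 ± 0.29 (7.66-fold, limma adjusted p = 5.73e-05) with no overlap between FRD and any other petiole array. FHL (AT5G02200), which helps carry phytochrome A into the nucleus, had 4.60, 3.65 and 4.45 in FRD, 1.77, 0.843 and 1.52 in D and 1.30, 1 and 0.939 in WL petioles, a rise of 1.98 ± 0.36 (limma adjusted p = 0.0039). HYH, a relative of the light-signalling factor HY5, stood lower at -0.94 ± 0.29 and was not called (limma adjusted p = 0.0637), although its FRD ratios of 0.698, 0.417 and 0.466 were all below the WL ratios of 1.03, 1 and 0.922.

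Brassinosteroids promote cell elongation together with auxin. EXO (AT4G08950), a brassinosteroid-responsive gene that promotes cell expansion, had ratios of 12.9, 17.2 and 17.3 in FRD petioles, of 4.09, 2.12 and 2.35 in D petioles and of 1, 1.38 and 0.850 in WL petioles. It rose by 3.9 ± 0.86 (14.9-fold, limma adjusted p = 0.0127), and the D arrays lay between the FRD and WL arrays. BIM1, a basic helix-loop-helix partner of the brassinosteroid factor BES1, had 1.65, 2.03 and 1.82 in FRD, 0.883, 0.802 and 0.868 in D and 1, 1.13 and 0.925 in WL petioles, a rise of 0.84 ± 0.13 (limma adjusted p = 0.00141). These were 2 of 3 genes on the list, against 4.44% higher among all probe sets. After quantile normalization neither was called, and BIM1 was not called with the spread taken from the compared arrays alone either. BRL1, a brassinosteroid receptor, stood at 0.66 ± 0.33, not called.

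The ethylene list held 2 genes, of which 1 rose, against 4.44% higher among all probe sets. This was EIN3, the master transcription factor of ethylene signalling, which rose by 0.64 ± 0.10 (limma adjusted p = 0.00123). Its ratios were 1.61, 1.72 and 1.56 in FRD and 0.996, 1.16 and 1 in WL petioles. None of 4 gibberellin genes was called, with a list median of 0.22. The gibberellin receptor gene GID1B stood at -0.39 ± 0.64 in petioles and at 2.02 ± 0.64 in blades, not called in either.

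Further rises among the 10 largest belonged to regulators and enzymes outside these lists. MGL (AT1G64660), methionine gamma-lyase, which breaks down methionine, had ratios of 12.9, 17 and 8.70 in FRD petioles, of 1.87, 1.97 and 2.34 in D petioles and of 1, 1.43 and 0.962 in WL petioles. It rose by 3.48 ± 0.23 (11.2-fold, limma adjusted p = 4.91e-06), and the 3 treatments did not overlap. HMT-1, a homocysteine S-methyltransferase that makes methionine, was picked after its values were seen: it rose by 1.53 ± 0.20 (limma adjusted p = 0.000548), with 2.16, 4.02 and 2.69 in FRD, 1.25, 0.958 and 1.35 in D and 1, 0.962 and 1 in WL petioles.

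AGL42 (AT5G62165), a MADS-box factor, had ratios of 18.1, 11.4 and 19.0 in FRD, of 8.15, 1.04 and 0.993 in D and of 1, 2.55 and 0.652 in WL petioles, a rise of 3.73 ± 0.98 (limma adjusted p = 0.0318). UPB1 (AT2G47270), a basic helix-loop-helix factor known in roots for controlling peroxidase genes, had 9.83, 14.9 and 13.8 in FRD, 2.97, 0.478 and 4.04 in D and 0.307, 3.72 and 1 in WL petioles, a rise of 3.60 ± 0.86 (limma adjusted p = 0.0199). In both genes the WL arrays were widely spread. SBT3.3 (AT1G32960), a subtilisin-like protease linked to immune priming, had 10.1, 2.47 and 19.5 in FRD, 6.55, 7.37 and 13.2 in D and 1, 0.525 and 1.51 in WL petioles, a rise of 3.09 ± 0.87 (limma adjusted p = 0.0442), and its D arrays lay within the range of the FRD arrays. It was the single called gene of 7 in an added list of subtilases made by name pattern, against 8.31% of all probe sets called. Subtilases with other names are not counted. These 3 calls rest on few arrays: AGL42 lost its call in 5 of 6 fits with 1 array left out (all but petiole WL replicate 2), UPB1 in 4 (all but petiole WL replicate 2 and petiole FRD replicate 1) and SBT3.3 in 5 (all but petiole FRD replicate 2). Their changes then ran from 3.3 to 4.29, from 2.71 to 4.51 and from 2.43 to 3.92.

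The 7 other rises with a symbol kept their call without any single array, except IAA20. In D over WL petioles 2 of the 10 were called, MGL and SBT3.3, and 5 were called in FRD over D, namely GH3.3, IAA29, WES1, MGL and HAT2.

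Genes of the cell wall moved in both directions. Expansins loosen walls at acid pH, and of 18 expansin genes none rose and 2 fell, a share near the 8.31% of all probe sets called. EXPB1 had ratios of 0.498, 0.411 and 0.405 in FRD petioles, of 0.216, 0.207 and 0.105 in D petioles and of 1, 1.14 and 0.946 in WL petioles, a fall of 1.23 ± 0.33 (limma adjusted p = 0.035). The D arrays were lower still. EXPA15 fell by 0.99 ± 0.27 (limma adjusted p = 0.0368), with 0.350, 0.652 and 0.590 in FRD and 0.963, 1 and 1.10 in WL petioles. Either call was lost with 1 array left out, EXPB1 in all 6 such fits and EXPA15 in 5 (all but petiole FRD replicate 2), where the changes ran from -1.33 to -1.16 and from -1.17 to -0.72. The expansin median was 0.19, and it was -0.13 with the 75th percentiles aligned. EXLA2 had 2.32, 4.07 and 2.09 in FRD, 0.952, 0.707 and 0.746 in D and 0.798, 1.02 and 1 in WL petioles, yet its change of 1.53 ± 0.45 did not pass the test (limma adjusted p = 0.0517). EXPA8 had 1.49, 1.86 and 0.584 in FRD, 0.383, 0.331 and 0.405 in D and 1.01, 1 and 0.984 in WL petioles, so that it stood at 0.23 ± 0.36 in FRD over WL, not called, and fell by 1.43 ± 0.36 in D over WL (adjusted p = 0.0359).

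Xyloglucan endotransglucosylases cut and rejoin the chains that tie cellulose fibres together. Of 10 such genes 2 rose and 1 fell, against 8.31% of all probe sets called, and the list median was 1.26, against 0.00 over all probe sets. None of the 10 was called after quantile normalization. XTH19 (AT4G30290) had ratios of 4.32, 4.79 and 8 in FRD petioles, of 1.67, 0.624 and 1.58 in D petioles and of 1, 0.779 and 1.19 in WL petioles, a rise of 2.49 ± 0.66 (limma adjusted p = 0.0335) that was lost in each of the 6 fits with 1 array left out (2.22 to 2.67). EXGT-A3 rose by 1.02 ± 0.20 (limma adjusted p = 0.00725), with 2.27, 1.77 and 2.11 in FRD, 2.09, 1.51 and 2.05 in D and 0.856, 1 and 1.19 in WL petioles. XTH32 fell by 1 ± 0.19 (limma adjusted p = 0.00495). XTH18 is a close relative of XTH19, and whether their probe sets share signal was not tested. It had 6.6, 10.9 and 43.9 in FRD, 3.98, 4.36 and 45 in D and 0.714, 1 and 4.33 in WL petioles. Its change of 3.33 ± 1.06 was not called (limma adjusted p = 0.0729), and replicate 3 was the highest array in all 3 treatments.

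The 50 other wall genes had 3 rises and 2 falls, a share of calls near the 8.31% of all probe sets, and 1 rise and 11 falls with the 75th percentiles aligned. ATPMEPCRB (AT4G02330), a pectin methylesterase, which stiffens or loosens pectin by removing methyl groups, had ratios of 7.41, 5.71 and 9.92 in FRD petioles, of 3.63, 2.85 and 7.60 in D petioles and of 0.768, 1 and 1.29 in WL petioles. It rose by 2.91 ± 0.33 (7.50-fold, limma adjusted p = 0.00017). CSLC04, which makes the xyloglucan backbone, rose by 0.93 ± 0.24 (limma adjusted p = 0.0306) and had 1.72, 2.24 and 1.80 in FRD, 0.848, 0.669 and 0.946 in D and 1.05, 0.953 and 1 in WL petioles. GH9C2, an endoglucanase, fell by 1.63 ± 0.23 (limma adjusted p = 0.000923), with 0.302, 0.377 and 0.332 in FRD, 0.416, 0.442 and 0.332 in D and 0.935, 1 and 1.21 in WL petioles. TBL37 rose by 0.93 ± 0.25 and TBL25 fell by 0.53 ± 0.14 (limma adjusted p = 0.0348 and 0.0289), both of the family that acetylates wall polymers. Without some single array the calls of CSLC04, TBL37 and TBL25 were lost, in 6, 6 and 4 of 6 fits, at changes of 0.81 to 1, 0.88 to 1.01 and -0.63 to -0.44.

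**Figure D3:**
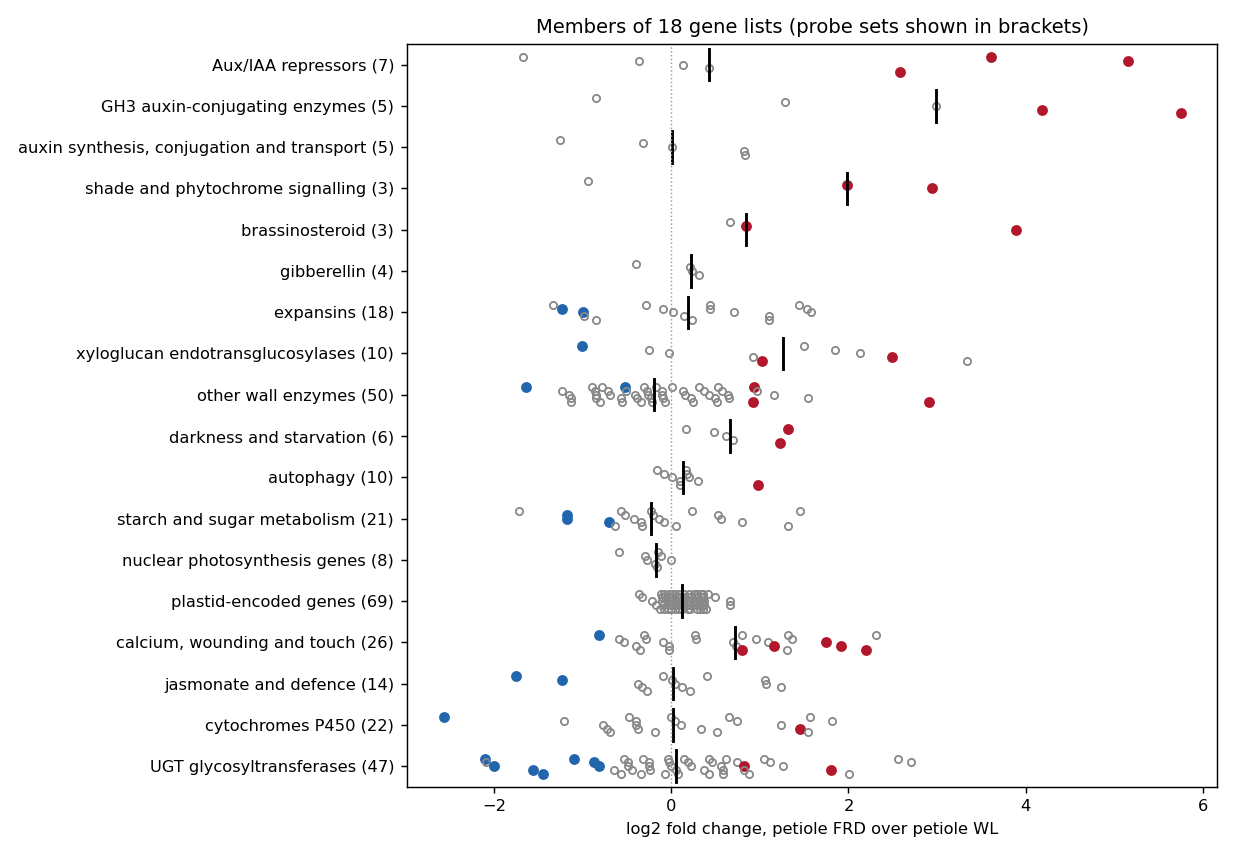
Log2 fold change of petiole FRD over petiole WL for each member of 18 gene lists, with the number of genes in brackets. Filled red and blue points are members called higher and lower, open points were not called and black bars are list medians; the Aux/IAA, GH3, shade and brassinosteroid lists hold only red calls here (with the 75th percentiles aligned, GH3 and shade hold 1 lower call each), while the expansin, wall, UGT and calcium lists hold calls that are blue, red or both.

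The largest falls with a symbol came from several functions. In D over WL petioles 5 of these 10 were called, and in FRD over D none was called. AGO7 (AT1G69440), an Argonaute protein of the small RNA pathway that sets leaf polarity and juvenile leaf form, had ratios of 0.0448, 0.0458 and 0.353 in FRD petioles, of 0.656, 0.582 and 0.467 in D petioles and of 1.22, 0.804 and 1 in WL petioles. All FRD arrays of AGO7 lay below all its D and WL arrays, but FRD over D was not called. Its fall over WL was 3.47 ± 0.60 log2 units (limma adjusted p = 0.00293), and without petiole FRD replicate 3 the change was -4.46. With the spread taken from the compared arrays alone, its call was lost (adjusted p = 0.116). It was the single call among 6 leaf growth regulators, against 8.31% of all probe sets called. NGA1, a factor that limits leaf growth, stood at -1.30 ± 0.44 in FRD over WL, not called (limma adjusted p = 0.0933), and fell by 3.18 ± 0.44 in D over WL (adjusted p = 0.00128), with 0.215, 0.450 and 0.889 in FRD, 0.170, 0.0750 and 0.137 in D and 1, 1.51 and 0.856 in WL petioles.

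ATHSP22.0, a small heat shock protein, had 0.105, 0.104 and 0.172 in FRD, 0.601, 0.952 and 0.440 in D and 1, 0.948 and 1.26 in WL petioles, a fall of 3.1 ± 0.77 (limma adjusted p = 0.0231). LpxA, named for a bacterial enzyme of lipid A synthesis, had 0.253, 0.113 and 0.156 in FRD, 0.247, 0.259 and 0.211 in D and 0.727, 1.44 and 1 in WL petioles, a fall of 2.62 ± 0.73 (limma adjusted p = 0.0418). CHR42, a SNF2-type chromatin remodeller, fell by 2.44 ± 0.66 (limma adjusted p = 0.0363), with 0.374, 0.116 and 0.116 in FRD, 0.349, 0.175 and 0.335 in D and 1, 0.488 and 1.65 in WL petioles. These 3 calls were lost in 5, 6 and 4 of the 6 fits with 1 array left out, where the changes ran from -3.34 to -2.98, from -2.93 to -2.35 and from -3 to -2.03; ATHSP22.0 was kept without petiole FRD replicate 3 only, and CHR42 without petiole WL replicate 2 or petiole FRD replicate 1. With ratios floored at the 10th percentile of all ratios, the changes of ATHSP22.0, LpxA and CHR42 were -0.94, -0.88 and -0.81 and none was called; this floor holds every fall near such a size whatever its true size, so it bears on the call only.

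GI (AT1G22770), a clock gene that also times flowering, had ratios of 0.243, 0.262 and 0.197 in FRD petioles, of 0.229, 0.170 and 0.520 in D petioles and of 1, 1.07 and 0.901 in WL petioles. It fell by 2.09 ± 0.37 (4.25-fold, limma adjusted p = 0.00351), and the FRD arrays lay within the range of the D arrays. The clock list held 1 other gene, CCR2, at -0.64 ± 0.62, not called. AFR, an F-box gene named for an attenuated far-red response and picked after its values were seen, fell by 1.79 ± 0.27 (limma adjusted p = 0.00117), with 0.373, 0.279 and 0.257 in FRD, 0.385, 0.388 and 0.256 in D and 0.859, 1 and 1.29 in WL petioles. In AFR too the FRD and D arrays overlapped.

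ATSPS4F (AT4G10120), which is on none of the lists, is a sucrose phosphate synthase, of the pathway that makes sucrose. It had ratios of 0.304, 0.155 and 0.381 in FRD petioles, of 0.259, 0.441 and 0.297 in D petioles and of 1, 1.10 and 0.865 in WL petioles, a fall of 1.91 ± 0.31 (limma adjusted p = 0.00204). Its call was lost with the compared arrays alone (limma adjusted p = 0.065) and after quantile normalization (limma adjusted p = 0.051). Of 21 genes of starch and sugar metabolism, none rose and 3 fell, against 3.87% lower among all probe sets, with a list median of -0.23. With the 75th percentiles aligned 7 were lower. SFP1, a sugar transporter relative, fell by 1.17 ± 0.23 (limma adjusted p = 0.00579) and had 0.514, 0.437 and 0.527 in FRD, 0.969, 0.958 and 0.922 in D and 1, 0.963 and 1.40 in WL petioles. APL4, a large subunit of the first enzyme of starch synthesis, fell by 1.17 ± 0.30, and SWEET2, a sugar carrier, by 0.70 ± 0.17 (limma adjusted p = 0.0308 and 0.0215). The calls of APL4 and SWEET2 were lost in 5 and 4 of 6 fits with 1 array left out, at -1.5 to -0.83 and -0.84 to -0.57, and TMT2, a vacuolar sugar carrier picked after its values were seen, fell by 0.72 ± 0.17 (limma adjusted p = 0.0215) and was lost in 3, at -0.78 to -0.65.

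Among 6 genes of darkness and starvation all changes were positive and the median was 0.66. Of these 2 were called, against 4.44% higher among all probe sets, and none of the 6 was called after quantile normalization. MCCA, an enzyme of leucine breakdown, had 2.85, 3.14 and 1.64 in FRD petioles, 2.75, 2.02 and 1.76 in D petioles and 1.03, 1 and 0.921 in WL petioles, a rise of 1.31 ± 0.28 (limma adjusted p = 0.0104). AKINBETA1, a subunit of the energy-sensing kinase SnRK1, had 2.73, 2.63 and 1.5 in FRD, 2.54, 2.18 and 1.92 in D and 1, 1.10 and 0.768 in WL petioles, a rise of 1.23 ± 0.30 (limma adjusted p = 0.0216). In either gene the FRD and D arrays overlapped and stood above all WL arrays. MCCA was lost without petiole FRD replicate 2 (adjusted p = 0.0506) and AKINBETA1 in 4 of 6 such fits (1.07 to 1.5). Of 10 autophagy genes 1 rose, against 4.44% higher among all probe sets. This was ATG8E, at 0.98 ± 0.25 (limma adjusted p = 0.0271), and 4 of the 6 fits with 1 array left out lost it (0.73 to 1.19). Its family members ATG8B, ATG8C and ATG8F stood at 0.18 ± 0.17, 0.17 ± 0.17 and 0.31 ± 0.13, not called. The autophagy median was 0.13, and it was -0.18 with the 75th percentiles aligned, a setting that also ended the call of ATG8E.

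Photosynthesis genes showed no called change at 2 h. Of 8 nuclear genes of the photosynthetic apparatus none was called, all 8 changes were below 0 and the median was -0.17. The light-harvesting gene LHCB4.2 had 0.975, 0.835 and 0.623 in FRD and 1, 1 and 0.926 in WL petioles, and RCA, which activates Rubisco, had 1.09, 1.01 and 0.958 in FRD and 1, 1.17 and 0.920 in WL petioles. None of 4 pigment genes was called (median -0.38). With the 75th percentiles aligned, which shifts every change down alike, 3 of the 8 and 2 of the 4 were called lower. Of 69 plastid-encoded genes none was called, 49 changes were positive and the median was 0.13, or -0.19 with the 75th percentiles aligned. The large Rubisco subunit gene rbcL had 1.03, 0.799 and 1.78 in FRD, 0.985, 0.903 and 1.45 in D and 1, 0.960 and 1.64 in WL petioles, and replicate 3 was the highest array in all 3 treatments.

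Some other chloroplast genes were called. CRR21 and CRR42, nuclear genes needed for the chloroplast NDH complex, fell by 0.95 ± 0.20 and 1.26 ± 0.22 (limma adjusted p = 0.00832 and 0.0028), 2 of 5 CRR genes in a list made after values were seen, against 3.87% lower among all probe sets. CRR42 had 0.479, 0.425 and 0.285 in FRD petioles, 0.566, 0.559 and 0.372 in D petioles and 1, 1.11 and 0.724 in WL petioles. PIFI, linked to chlororespiration, CCB3, which helps assemble cytochrome b6, and EX1, a sensor of singlet oxygen, were picked 1 by 1 because they were called, and fell by 0.67 ± 0.13, 1.06 ± 0.22 and 0.72 ± 0.15 (limma adjusted p = 0.00523, 0.00833 and 0.00983). All 5 genes kept their call without any single array, but all 5 lost it with the compared arrays alone and after quantile normalization.

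UGT enzymes attach sugars to flavonoids, hormones and other small molecules, and 9 of 47 UGT genes were called, 2 higher and 7 lower, against 4.44% higher and 3.87% lower among all probe sets. The list median was 0.06, and -0.26 with the 75th percentiles aligned, when 1 was higher and 12 were lower. After quantile normalization none was higher and 2 were lower. UGT78D1 (AT1G30530), which adds rhamnose to flavonols, had ratios of 0.362, 0.216 and 0.165 in FRD petioles, of 0.477, 0.627 and 0.284 in D petioles and of 1.06, 1 and 0.953 in WL petioles. It fell by 2.10 ± 0.32 (4.27-fold, limma adjusted p = 0.00131), and the FRD and D arrays overlapped. UGT78D2, which adds glucose to flavonoids, fell by 1.45 ± 0.25 (limma adjusted p = 0.0027), with 0.490, 0.365 and 0.305 in FRD, 0.723, 0.655 and 0.389 in D and 0.938, 1.19 and 1 in WL petioles. UGT85A5 had 0.273, 0.371 and 0.121 in FRD, 0.447, 0.631 and 0.579 in D and 1, 1.41 and 0.548 in WL petioles, a fall of 1.99 ± 0.40 (limma adjusted p = 0.00688), which was not called with the floor (-0.74, adjusted p = 0.13). With the compared arrays alone it was not called either (limma adjusted p = 0.14).

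The other UGT falls were UGT76E11 at -1.56 ± 0.27, UGT74D1 at -1.10 ± 0.18, UGT88A1 at -0.87 ± 0.18 and UGT72B3 at -0.82 ± 0.23, with limma adjusted p between 0.00209 and 0.0441. UGT72E1, which glucosylates lignin precursors, rose by 1.81 ± 0.41 (limma adjusted p = 0.0136), with 3.31, 2.68 and 4.72 in FRD, 1.99, 2.66 and 4.08 in D and 0.971, 1 and 1.01 in WL petioles. UGT71C5, which glucosylates abscisic acid, rose by 0.82 ± 0.21 (limma adjusted p = 0.0308). The calls of UGT71C5, UGT72B3 and UGT72E1 were lost in 6, 5 and 1 of the 6 fits with 1 array left out (0.76 to 0.86, -0.94 to -0.70, and 1.59 without petiole FRD replicate 3). GT72B1, a member of the same enzyme class outside the name pattern, fell by 1.84 ± 0.32 (limma adjusted p = 0.00298). The 2 flavonoid synthesis genes measured were not called, and one of them, CHI, had 2.53, 0.449 and 6.69 in FRD and 1, 0.174 and 2.15 in WL petioles, with the groups overlapping.

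**Figure D4:**
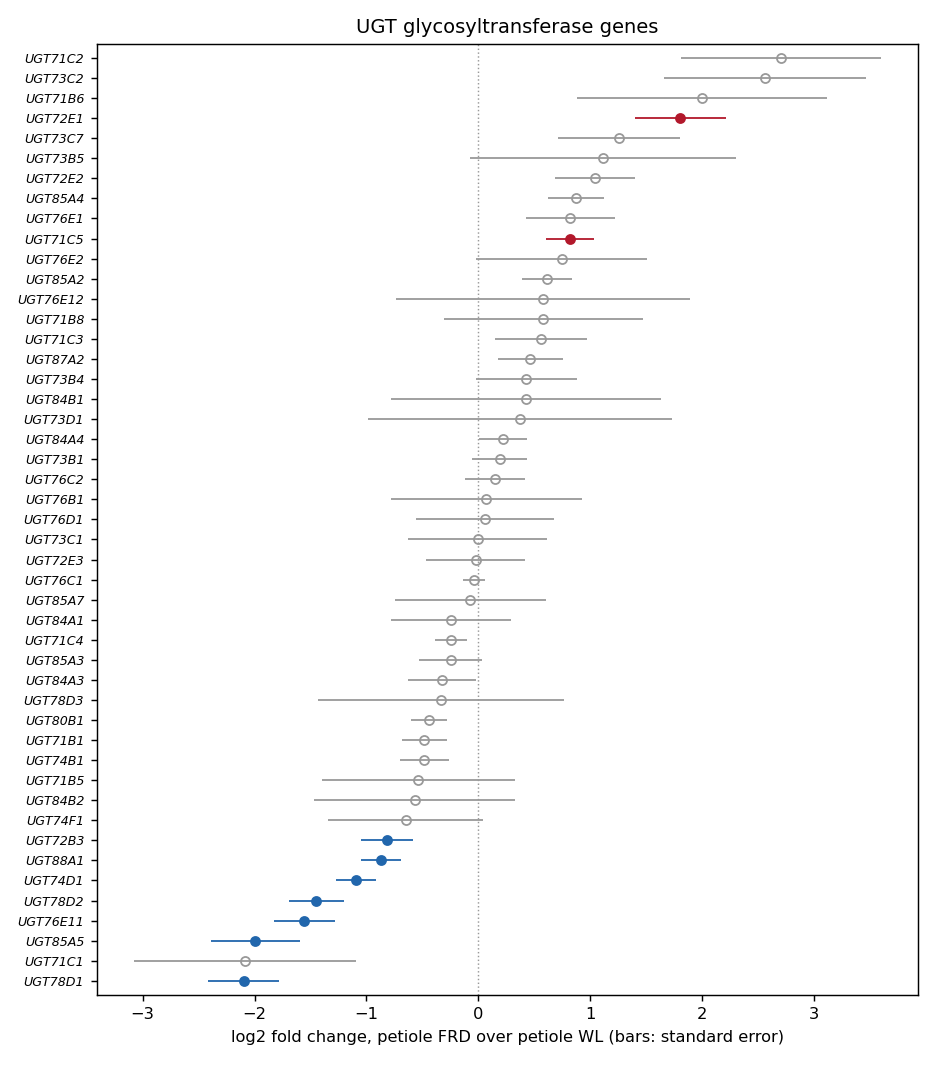
Log2 fold change of petiole FRD over petiole WL for 47 UGT genes, sorted from the highest at the top, with bars for the standard error of the fit. Filled points were called, 2 higher in red and 7 lower in blue; open points such as UGT71C2 at the top have wide bars and did not pass the test.

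Of 14 jasmonate and defence genes none rose and 2 fell, against 3.87% lower among all probe sets, and the list median was 0.03 (-0.29 with 3 lower when the 75th percentiles were aligned). AOP1, an oxoglutarate-dependent dioxygenase of the glucosinolate locus, had ratios of 0.289, 0.371 and 0.274 in FRD petioles, of 0.258, 0.234 and 0.186 in D petioles and of 1, 1.12 and 0.993 in WL petioles, a fall of 1.75 ± 0.28 (limma adjusted p = 0.00178). MYC4, a transcription factor of jasmonate signalling and glucosinolate control, had 0.425, 0.323 and 0.472 in FRD, 0.775, 0.951 and 0.737 in D and 1, 0.830 and 1 in WL petioles, a fall of 1.23 ± 0.22 (limma adjusted p = 0.00387). All FRD arrays of MYC4 lay below all its D arrays. The glucosinolate transporter gene GTR1, picked after its values were seen, fell by 1.06 ± 0.21 (limma adjusted p = 0.00748), with 0.476, 0.359 and 0.647 in FRD, 0.763, 0.980 and 0.756 in D and 1.03, 1 and 0.982 in WL petioles.

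Of 22 cytochrome P450 genes 1 rose and 1 fell, a share near the 8.31% of all probe sets, and with the 75th percentiles aligned 1 was higher and 6 were lower. CYP71B26 (AT3G26290) fell by 2.57 ± 0.37 (5.92-fold, limma adjusted p = 0.000881), with 0.286, 0.115 and 0.177 in FRD, 0.295, 0.274 and 0.338 in D and 1, 0.901 and 1.34 in WL petioles. CYP71B22 rose less in FRD than in D petioles: its ratios were 2.57, 2.88 and 2.65 in FRD, 7.84, 8.69 and 6.98 in D and 1, 0.862 and 1.11 in WL petioles. It rose by 1.45 ± 0.22 in FRD over WL (limma adjusted p = 0.0012) and stood at -1.53 ± 0.22 in FRD over D (adjusted p = 0.00277).

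Among 20 beta-glucosidase genes, which release sugars from stored conjugates and make a list added after values were seen, none rose and 3 fell, against 3.87% lower among all probe sets. BGLU47 (AT4G21760) had ratios of 0.132, 0.137 and 0.216 in FRD petioles, of 0.276, 0.208 and 0.255 in D petioles and of 0.775, 1 and 1.34 in WL petioles, a fall of 2.69 ± 0.46 (limma adjusted p = 0.0027). Its change was 0.04 ± 0.46 in blades, but the petiole minus blade difference was not called for any gene of this list. With ratios floored at their 10th percentile the petiole change of BGLU47 was -0.87 and not called. BGLU40 and BGLU44 fell by 1.03 ± 0.19 and 1 ± 0.17 (limma adjusted p = 0.00433 and 0.00239).

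Ascorbate synthesis, known to depend on light, showed 2 falls among 3 genes, against 3.87% lower among all probe sets. This list too was added after values were seen, so its count is no evidence about the pathway. VTC4, a phosphatase of that pathway, had 0.396, 0.426 and 0.463 in FRD petioles, 0.433, 0.437 and 0.466 in D petioles and 1, 0.956 and 1.04 in WL petioles, a fall of 1.22 ± 0.15 (limma adjusted p = 0.000344). The FRD and D arrays overlapped closely and lay below all WL arrays. GME, an epimerase of the pathway, fell by 0.58 ± 0.13 (limma adjusted p = 0.012) with 0.726, 0.745 and 0.638 in FRD, 0.931, 1.04 and 0.842 in D and 0.976, 1.19 and 1 in WL petioles, and its call was lost without petiole WL replicate 2 or petiole FRD replicate 3 (changes of -0.64 to -0.49 over the 6 such fits).

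A list for calcium, wounding and touch was made by gene symbol, such as CML, IQD and WRKY, and not by a measured response. Of its 26 genes 5 rose and 1 fell, against 4.44% higher and 3.87% lower among all probe sets. The list median was 0.72, or 0.40 with the 75th percentiles aligned, when 4 were higher and 3 were lower. After quantile normalization 1 was higher and none was lower. WRKY22 (AT4G01250), a defence transcription factor also known to respond to darkness, had ratios of 5.07, 4.46 and 4.55 in FRD petioles, of 2.08, 1.92 and 2.23 in D petioles and of 0.935, 1 and 1.15 in WL petioles. It rose by 2.19 ± 0.25 (4.58-fold, limma adjusted p = 0.000169), with no overlap between treatments. STZ, a zinc finger repressor of stress responses, had 4.12, 1.94 and 3.07 in FRD, 2.32, 1.88 and 2.02 in D and 1.05, 1 and 0.433 in WL petioles, a rise of 1.92 ± 0.36 (limma adjusted p = 0.00485).

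IQD22 and IQD23 encode calmodulin-binding proteins of 1 family and moved in opposite directions. IQD22 rose by 1.74 ± 0.37 (limma adjusted p = 0.0104), with 2.12, 4.31 and 2.85 in FRD, 3.47, 5.84 and 1.93 in D and 0.546, 1 and 1.27 in WL petioles, while IQD23 fell by 0.82 ± 0.17 (limma adjusted p = 0.00773). CML30, a calmodulin-like protein, and BIK1, a kinase of immune signalling, rose by 1.16 ± 0.19 and 0.80 ± 0.20 (limma adjusted p = 0.00252 and 0.0246). The calls of IQD22 and BIK1 were lost in 2 and 3 of 6 fits with 1 array left out (1.39 to 2.00 and 0.65 to 0.89). CML38, a calcium sensor, had 6.34, 1.76 and 2.31 in FRD and 1.15, 1 and 0.183 in WL petioles and was not called at 2.31 ± 0.73 (limma adjusted p = 0.0717). Its FRD arrays lay above its WL arrays, but without petiole WL replicate 3 its change was 1.46.

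Transcription factors of the bZIP family, in an added list of 14, had 2 rises and no fall, against 4.44% higher and 3.87% lower among all probe sets. BZIP61 had 3.77, 5.14 and 2.59 in FRD petioles, 1.25, 0.895 and 0.752 in D petioles and 1, 1.13 and 0.764 in WL petioles, a rise of 1.95 ± 0.41 (limma adjusted p = 0.00983). bZIP52 had 3.12, 3.37 and 2.48 in FRD, 1.45, 1.29 and 1.45 in D and 1.04, 1 and 0.937 in WL petioles, a rise of 1.58 ± 0.19 (limma adjusted p = 0.000214). All FRD arrays lay above all D and WL arrays in either gene. Other growth genes picked after their values were seen were ARL, a gene of cell expansion related to ARGOS, which rose by 2.19 ± 0.41 (limma adjusted p = 0.00457) with 6.41, 6.69 and 3.05 in FRD, 2.12, 2.27 and 2.34 in D and 1, 0.810 and 1.71 in WL petioles, and AZG1, a purine and cytokinin transporter, which rose by 1.42 ± 0.19 (limma adjusted p = 0.000553) with 2.83, 3.11 and 2.38 in FRD, 1.23, 1.61 and 0.881 in D and 1.18, 1 and 0.933 in WL petioles.

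CLE genes encode short signal peptides, and 2 of 6 in an added list fell, against 3.87% lower among all probe sets. CLE41, a phloem peptide that maintains the vascular cambium, fell by 0.78 ± 0.17 and CLE21 by 1.55 ± 0.42 (limma adjusted p = 0.0121 and 0.036). Their calls were lost in 2 and 5 of the 6 fits with 1 array left out (-0.98 to -0.64 and -2 to -1.16). Another added list, made after values were seen, held 11 genes of the ESCRT sorting machinery, which sends membrane proteins to the vacuole. Its count is therefore no evidence about that machinery. Of the 11 genes 3 rose, against 4.44% higher among all probe sets. They were VPS60.1 at 0.75 ± 0.15, ELC at 0.62 ± 0.13 and VPS2.1 at 0.49 ± 0.11 (limma adjusted p between 0.00603 and 0.0163). With the 75th percentiles aligned 1 of the 11 was higher and 1 lower. VPS2.1 was lost in 3 of the fits with 1 array left out (0.43 to 0.56). In further added lists, 1 of 13 glutathione S-transferases fell (GSTU27, -1.29 ± 0.21; 4 with the 75th percentiles aligned), and 1 of 29 serine carboxypeptidase-like genes rose (scpl33, 1.70 ± 0.44) and 1 fell (scpl29, -0.53 ± 0.12), shares near the 8.31% of all probe sets. With the 75th percentiles aligned 1 of the 29 was higher and 7 were lower. The calls of scpl33 and scpl29 were lost in 5 (all but petiole WL replicate 3, which gave 2.3) and 2 of the 6 fits with 1 array left out.

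Few markers of single cell types carried a symbol, and none of the defining ones was called. IRX15, a xylem wall gene, stood at 0.49 ± 0.87, and the stomatal lineage genes SPCH and MUTE at -0.87 ± 0.86 and -0.34 ± 0.85. These 3 changes were smaller than the spread between arrays. FDH, which matched the epidermis list by symbol, is at this locus (AT5G14780) formate dehydrogenase and no epidermal marker, and it rose by 0.59 ± 0.16 (limma adjusted p = 0.0336), a call lost in 5 of 6 fits with 1 array left out (all but petiole WL replicate 3, which gave 0.73). No phloem marker, SAUR gene or cell cycle gene on the lists had a symbol here.

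Genes known by locus code were among the largest changes. AT5G02580 had ratios of 74.4, 76 and 53.6 in FRD petioles, of 5.27, 1.34 and 0.244 in D petioles and of 0.713, 1 and 3.79 in WL petioles, a rise of 5.59 ± 1.02 (limma adjusted p = 0.00413), and AT5G62280 had 44.9, 58.6 and 10.2 in FRD, 0.723, 1.09 and 2.54 in D and 1, 0.208 and 1.78 in WL petioles, a rise of 5.38 ± 0.79 (limma adjusted p = 0.00112). In both genes the D arrays overlapped the WL arrays. AT3G46390 and AT2G43620 rose by 4.43 ± 1.08 and 4.16 ± 0.72 (limma adjusted p = 0.0215 and 0.00293) and had a different pattern. Their D ratios, 12.9, 25.3 and 2.98 for AT3G46390 and 5.75, 9.53 and 12.3 for AT2G43620, reached the range of their FRD ratios, 10.6, 28.1 and 25.8 for AT3G46390 and 7.97, 9.08 and 18.7 for AT2G43620.

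The falls were led by AT1G52770, with 0.0133, 0.0793 and 0.0220 in FRD petioles, 0.700, 0.267 and 0.169 in D petioles and 1, 1.32 and 0.726 in WL petioles, a fall of 5.11 ± 0.77 (limma adjusted p = 0.00125). AT2G15020 fell by 4.73 ± 0.67 (limma adjusted p = 0.00116) with 0.0460 and 0.0403 in 2 FRD arrays, its value in petiole FRD replicate 3 being missing and left out of the fit, and with 0.0335, 0.117 and 0.0134 in D and 1, 0.900 and 1.65 in WL petioles. Its FRD and D arrays overlapped, whereas all FRD arrays of AT1G52770 lay below its D arrays. With the floor AT1G52770 was not called (-0.83, adjusted p = 0.0556). AT4G16880 and AT2G27420 fell by 4.28 ± 0.55 and 3.97 ± 0.80 (limma adjusted p = 0.000428 and 0.00722). With the variance trend, which runs on the mean log2 ratio and not on a level, the calls of AT2G15020 and AT2G27420 were lost (limma adjusted p = 0.19 and 0.708).

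Among these 8 genes AT3G46390 lost its call in 4 of the 6 fits with 1 array left out (all but petiole WL replicate 2 and petiole FRD replicate 1). With the spread taken from the compared arrays alone, the calls of AT5G62280, AT3G46390, AT2G43620, AT4G16880 and AT2G27420 were lost (limma adjusted p = 0.0527 to 0.0953). Of the 4 rises 1 was called in D over WL and 2 in FRD over D. Of the 4 falls 3 were called in D over WL and 1 in FRD over D. Without petiole WL replicate 3, AT5G02580 rose by 6.31. For AT5G62280 the change was 4.49 without petiole WL replicate 2 and 6.16 without petiole FRD replicate 3, for AT3G46390 3.68 without petiole WL replicate 3 and 5.11 without petiole WL replicate 2, and for AT2G43620 3.26 without petiole WL replicate 2. Without petiole FRD replicate 2, the changes of AT1G52770, AT4G16880 and AT2G27420 were -5.85, -4.93 and -4.57; AT4G16880 stood at -3.53 without petiole FRD replicate 3 and AT2G27420 at -2.95 without petiole FRD replicate 1. A further 523 rises, up to 5.91 log2 units, and 452 falls, down to -4.99, belong to probe sets with no single gene in the annotation.

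Blades of the same leaves were used to ask whether the petiole response differs from that of the blade under the same treatments, since the arrays of the 2 tissues are not shared. The fit treats the 2 tissues as independent. Whether same-numbered petiole and blade arrays vary together was not tested. FRD and WL blades differed in 2537 probe sets (11.2%), 1458 higher (6.41%) and 1079 lower (4.74%). Of the 1010 probe sets that rose in petioles 94.4% were above 0 in blades, against 47.7% of all probe sets, and 649 were called higher in blades (64.3% of the petiole list and 44.5% of the blade list), with 1 called lower. Of the 881 that fell in petioles 96.1% were below 0 in blades, against 52.3% of all probe sets, and 481 were called lower in blades (54.6% of the petiole list and 44.6% of the blade list), with none called higher. The fit takes the spread of a probe set from all 18 arrays, so probe sets of small spread are called more easily in either tissue.

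Of the 10 largest rises with a symbol 9 were above 0 in blades and 5 were called there. GH3.3, IAA29, WES1, HAT2 and MGL changed by 8.26 ± 0.82, 3.70 ± 0.38, 2.98 ± 0.23, 2.27 ± 0.29 and 0.89 ± 0.23 in blade FRD over blade WL. SBT3.3 stood at -0.13 ± 0.87 in blades, and AGL42 at 0.36 ± 0.98, neither called. Of the 10 largest falls 8 were below 0 in blades and 4 were called there, namely GI at -2.86 ± 0.37, UGT78D1 at -1.59 ± 0.32, ATSPS4F at -1.33 ± 0.31 and CYP71B26 at -1.25 ± 0.37. A call in petioles and none in blades does not show a difference, which was tested separately.

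The difference of the petiole response minus the blade response was called for 8 probe sets (0.0352%), 3 higher (0.0132%) and 5 lower (0.022%), with 1681 at an unadjusted p under 0.05. MGL had the single symbol among them: it rose more in petioles by 2.59 ± 0.33 log2 units (limma adjusted p = 0.0222), with 12.9, 17 and 8.70 in petiole FRD and 1, 1.43 and 0.962 in petiole WL arrays, and 1.69, 2.23 and 1.81 in blade FRD and 1.14, 1 and 0.933 in blade WL arrays. The FRD arrays of MGL lay above the WL arrays in either tissue. Without single arrays the number of calls ran from 1 to 17, and the call of MGL itself was lost without petiole FRD replicate 1, petiole WL replicate 1 or 3, blade FRD replicate 1, or blade WL replicate 1 or 2, at 2.30 to 2.84 over all alternatives.

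**Figure D5:**
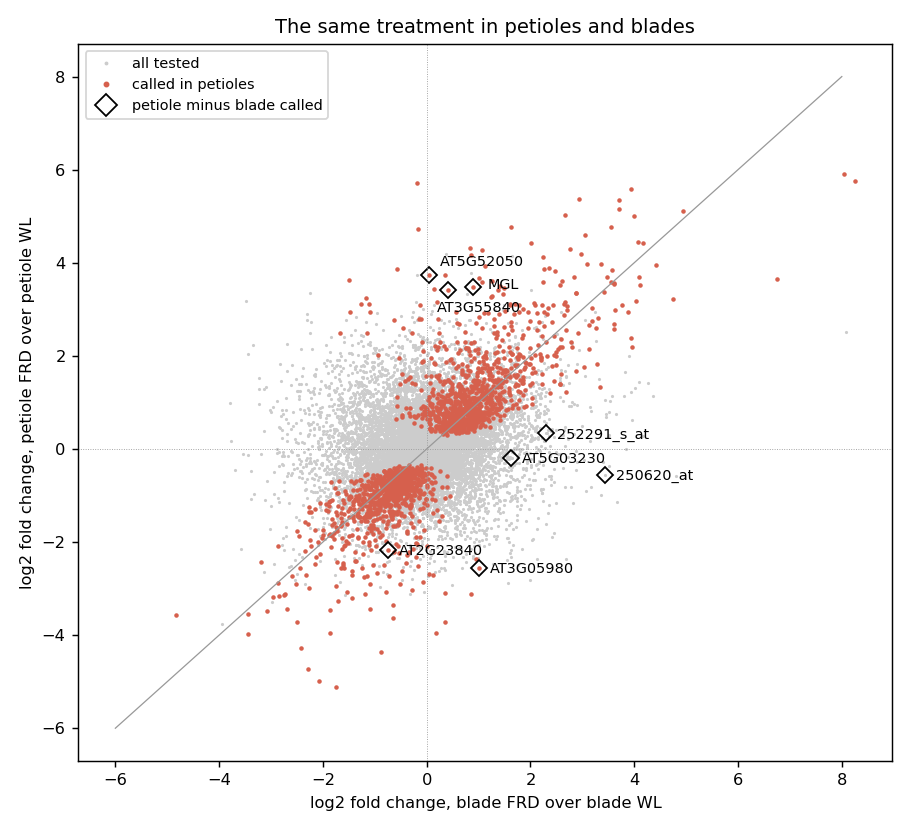
Log2 fold change of FRD over WL in petioles (vertical axis) and in blades (horizontal axis) for every probe set tested, with the diagonal marking equal changes. Red points were called in petioles, and open diamonds are the 8 probe sets whose petiole minus blade difference was called: MGL, AT5G52050 and AT3G55840 lie above the diagonal and the 5 others below it.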

How the data were processed

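Arrays of 3 FRD and 3 WL petiole samples were compared, with the 12 other arrays of the series in the same fit. The authors deposited 1 linear ratio per probe set and array, relative to the white-light median of the same tissue, as read from the values; the scanner intensities, the summary method and any scaling before division are not given in the sources used here, so level and depth are unknown. In 3 cells the value was missing and left out. The 64 control probe sets were set aside, and 22746 were tested.

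The log2 ratios entered limma 3.58.1 (R 4.3.3), each of the 6 groups having its own mean and the spread shared over 18 arrays (12 residual degrees of freedom). Moderated p-values were two-sided and adjusted by Benjamini-Hochberg over 22746 probe sets and calls needed an adjusted value under 0.05. The script was tested on simulated data.

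Of the probe sets 13513 have 1 gene in the platform annotation, 503 have several and 8794 have none; 13436 matched the RefSeq table of assembly TAIR10.1. The text names the 10 largest called rises and falls with a symbol, the 4 largest with a locus code and list members. The largest were taken only from genes whose FRD and WL arrays do not overlap. The comparison, the gene lists and the naming rule were chosen with earlier results of these data known, and the lists called added were made after values were seen. Alternatives were the spread from the compared arrays alone, a replicate block, quantile normalization, aligned 75th percentiles, a floor or pseudocount at 0.553 (the 10th percentile of all ratios), a variance trend, array weights and each array left out.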

Additional observations from a re-analysis of the deposited data

Results flagged for a closer look

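For 8 probe sets the response to the pulse and darkness differed between petioles and blades by a test of the difference itself (petiole FRD over WL minus blade FRD over WL, in log2 units with SE, limma with Benjamini-Hochberg adjustment over all probe sets). Apart from MGL, they are outside the naming rule and were picked because they passed this test. Each was refitted under 20 alternatives.

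In 3 of them the petiole change was the higher one. MGL, methionine gamma-lyase, changed by 3.48 ± 0.23 in petioles and by 0.89 ± 0.23 in blades, a difference of 2.59 ± 0.33 (adjusted p = 0.0222) that was called in 12 of the 20 alternatives. AT5G52050, a detoxification efflux carrier that RefSeq also lists as DTX50, changed by 3.73 ± 0.36 in petioles and by 0.05 ± 0.36 in blades, a difference of 3.69 ± 0.51 (adjusted p = 0.0377, called in 10). AT3G55840 changed by 3.41 ± 0.31 in petioles and by 0.41 ± 0.31 in blades, a difference of 3 ± 0.43 (adjusted p = 0.0377, called in 7).

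In the 5 others the petiole change was the lower one. A probe set with no single gene in the annotation changed by 0.34 ± 0.15 in petioles and by 2.29 ± 0.15 in blades, a difference of -1.95 ± 0.21 (adjusted p = 0.00727, called in 18). A second unnamed probe set changed by -0.55 ± 0.42 in petioles and by 3.44 ± 0.42 in blades, a difference of -3.99 ± 0.59 (adjusted p = 0.0377, called in 6). AT5G03230 changed by -0.2 ± 0.19 in petioles and by 1.63 ± 0.19 in blades, a difference of -1.83 ± 0.27 (adjusted p = 0.0377, called in 6). AT3G05980 went opposite ways, with -2.55 ± 0.38 in petioles and 1.01 ± 0.38 in blades, a difference of -3.56 ± 0.54 (adjusted p = 0.0439, called in 4, from -3.93 to -1.42 over the alternatives). AT2G23840 changed by -2.17 ± 0.15 in petioles and by -0.74 ± 0.15 in blades, a difference of -1.43 ± 0.21 (adjusted p = 0.0377, called in 5). Over the alternatives the difference of AT2G23840 ran from -1.56 to -0.2, its smallest size being with ratios floored at their 10th percentile, which holds falls near 1 size in either tissue.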

How the results depend on the processing

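FRD against WL petioles gave 1891 calls, and 919 with a minimum of 2-fold. It gave 590 with the spread taken from the compared arrays alone (511 shared with the 1891), 183 after quantile normalization and 4385 with the 75th percentiles aligned. It gave 2107 with a floor, 1972 with a pseudocount, 1794 with a variance trend and 2462 with array weights. Leaving out 1 array gave 1152 to 1457. Petiole minus blade gave 8 calls, and 0 with the compared arrays alone, 0 after quantile normalization, 18 with a floor, 38 with a pseudocount, 34 with array weights and 1 to 17 with 1 array left out. With the replicate block the counts were 2477 and 5, but the deviations of same-numbered FRD and WL petiole arrays correlated at 0.0352, 0.0464 and 0.111, so the numbers are not taken to pair the arrays. None of the 144 called changes followed through these settings changed sign, though aligning the 75th percentiles lowered the median of all changes to -0.31, so the smallest rises among the other calls, down to 0.305, do not keep theirs. Quantile normalization and the compared arrays alone ended most calls of named genes, leaving 23 and 48 of 144. In the second, fewer arrays stood behind the spread. The first gives all arrays the same distribution and so widens the WL arrays, whose ratios lay closer to 1. Their 75th percentiles were 1.011 to 1.098 in petioles, against 1.305 to 1.347 in FRD petioles. How far this widening ended calls was not tested. Signal over background is unknown, since ratios hold no level.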
